A study of Homo sapiens with 4 samples.

Results

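The genes described here are FTH1, FTL, TFRC, IREB2 and ACO1, which encode the ferritin subunits, the transferrin receptor and the iron regulatory proteins. They were taken by gene name, with the condition that a level was given in all 4 gene tables, and all 5 met it, of 11288 genes listed in all 4. All libraries came from the human breast cancer line MDA-MB-231, which lacks hormone receptors, grown in L15 medium with serum. The first group was RNA pulled down from cell lysate with anti-PABPC1 antibody, PABPC1 being the protein that coats the poly(A) tails of cytoplasmic mRNAs, and its control was the input RNA. An IgG control was not analysed here. The third group (si_LINC00882) was cells in which the non-coding RNA LINC00882 was knocked down, by an siRNA or a Smart Silencer as the labels variously say. Its control was the library labelled Si-NC (si_NC). Each group was 1 library, so no spread between replicates could be measured, no test was possible, and each difference describes these libraries only.

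Ferritin is a hollow shell of heavy and light subunits that stores iron. FTH1 encodes the heavy subunit, which oxidises iron, and FTL the light subunit, which helps the mineral core to form. TFRC encodes the receptor that brings transferrin-bound iron into the cell. When iron is scarce, the iron regulatory proteins bind a hairpin in target mRNAs, the iron-responsive element (IRE). Bound near the start of ferritin mRNAs the proteins block translation, and bound in the far untranslated region of TFRC mRNA they protect it from decay. IREB2 encodes iron regulatory protein 2, which is degraded when iron is plentiful. ACO1 encodes iron regulatory protein 1, which turns into the cytosolic aconitase when it carries an iron-sulfur cluster. In this system much of the control acts on translation, and mRNA levels such as these do not measure protein.

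The hairpin by which the regulatory proteins recognise these mRNAs could be read in the RefSeq start-site windows of GRCh38.p14, each running from 250 bases before to 50 bases after a gene's start. It was searched as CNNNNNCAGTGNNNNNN, a C, a stem arm, a loop of 6 bases that begins with CAGTG and a second arm, with all 5 stem pairs required and G with T allowed. The FTL sequence is shown because the hairpin was found in its window among the 4 member genes searched, which did not include FTH1, and that of ALAS2, the red-cell heme synthesis enzyme, because it is the other known target found. Both are sense strand, 5′ to 3′, with the loop in capitals.
FTL: gtctcttgcttcaaCAGTGTttggac
ALAS2: cattcgttcgtcctCAGTGCagggcaacag
The FTL stretch lies at chr19:48965333-48965358 on the plus strand, from base 25 to base 50 of the transcript, where the window ends. The ALAS2 stretch lies at chrX:55030942-55030971 on the minus strand, from base 7 to base 36. Only 8 of 35116 windows (0.0228%) held the hairpin within their first 50 transcribed bases, and FTL and ALAS2 were 2 of these 8. On either strand of the whole window the hairpin was in 0.216% of windows, whereas the letters CAGTG alone were in 52.6%. The windows of TFRC, IREB2 and ACO1 did not have it in their first 50 transcribed bases. No level of ALAS2 was analysed here.

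Levels are given as the authors' FPKM, fragment numbers scaled to transcript length and library, which may be compared between genes. FTL was the most abundant of the 5, at 1633 FPKM in the pulldown library, 2226 in input, 1296 in si_LINC00882 and 1258 in si_NC. It ranked 2nd of 11712 genes in the pulldown and 14th in input, and 12th of 11695 genes in each transfected library. FTH1 stood at 274 FPKM in the pulldown, 420 in input, 280 in si_LINC00882 and 259 in si_NC. In FPKM the input library held the highest level of both ferritin genes, and si_NC the lowest. The summed FPKM was also highest in input, at 338894. As a share of the summed FPKM, both were highest in the pulldown, FTH1 at 0.139% and FTL at 0.826%. In input the shares were 0.124% and 0.657%.

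TFRC stood at 36.7 FPKM in the pulldown, 19.9 in input, 124 in si_LINC00882 and 113 in si_NC. ACO1 stood at 19.2 FPKM in the pulldown, 9.86 in input, 24.3 in si_LINC00882 and 31.3 in si_NC. IREB2 was the least abundant, at 6.13 FPKM in the pulldown, 3.83 in input, 6.69 in si_LINC00882 and 6.90 in si_NC. For these genes the order in FPKM was turned round, with input lowest and both transfected libraries highest. The order FTL, FTH1, TFRC, ACO1, IREB2 from high to low held in each of the 4 libraries. Whether neighbouring levels of one gene differ beyond replicate error could not be measured.

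**Figure D1:**
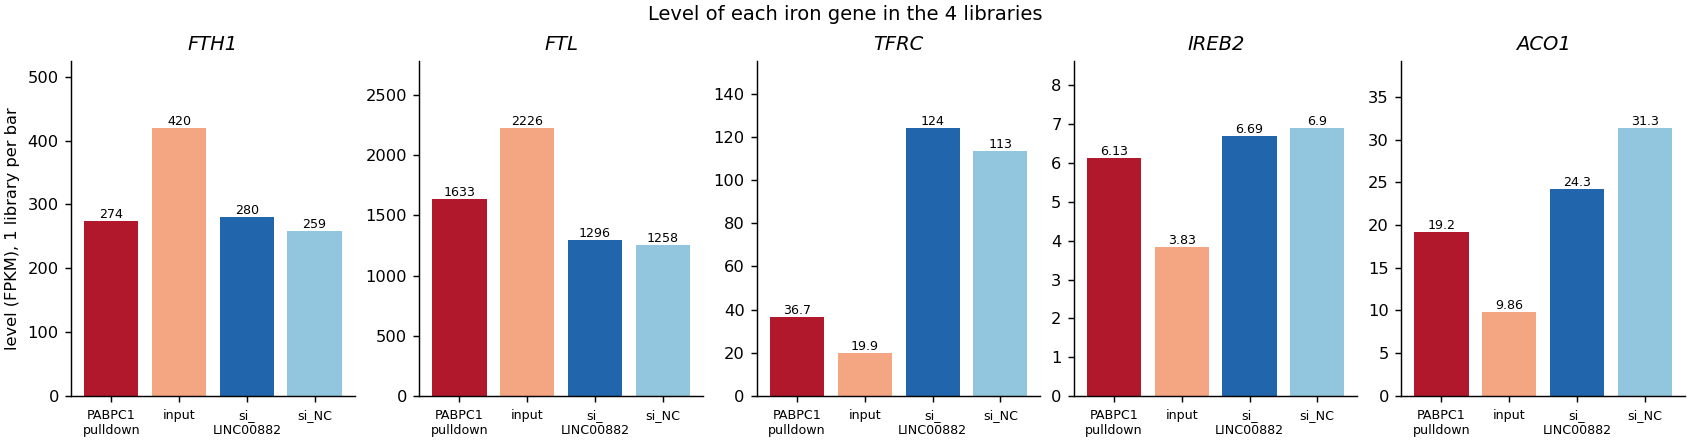
Bars give the FPKM of each gene in the PABPC1 pulldown, input, si_LINC00882 and si_NC libraries, 1 library per bar, on axes that start at 0 and differ between genes. The ferritin genes are highest in input (420 and 2226 FPKM), and TFRC is lowest there (19.9 FPKM) and highest in si_LINC00882 (124 FPKM).

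TFRC had by far the widest range of the 5. Its highest FPKM was 6.24 times its lowest, and of the 6054 genes at or above 3 FPKM in every one of the 4 libraries 1.34% had a wider range. The ratio was 3.18 for ACO1, with 10.4% of genes wider. It was 1.80 for IREB2, 1.77 for FTL and 1.62 for FTH1, against a median of 1.84 over the same genes. Most of the range of TFRC lay between the lysate and transfected-cell libraries and not within a pair. Input, which had no pulldown, and si_NC, which had no knockdown of LINC00882, differed in TFRC at 19.9 against 113 FPKM.

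The libraries themselves differed in ways that touch every value. Mitochondrially encoded genes took 3.08% of the summed FPKM in the pulldown and 47.3% in input, and 19.3% in si_LINC00882 and 16.3% in si_NC. The summed FPKM was between 197844 and 338894, and the read depth is unknown. PABPC1 itself stood at 255 FPKM in the pulldown and 412 in input. Of the line's markers, VIM (155 to 367 FPKM) and CD44 (50.1 to 67.6) were present in all 4 libraries. CAV1 had 160 FPKM in the pulldown against 30.3 in input, with 116 in si_LINC00882 against 144 in si_NC. MMP14 had 66.8 FPKM in the pulldown against 10.7 in input, with 74.3 in si_LINC00882 against 69.5 in si_NC. Input thus stood apart, lowest in both of these and highest in VIM. Among markers low in this line, ERBB2 stood at 1.67 to 6.68 and EPCAM at 2.24 to 10.5, and ESR1, PGR and CDH1 were not analysed here. The liver gene ALB stood at 4.47 FPKM in the pulldown and was listed at 0 in input.

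In the PABPC1 pulldown the ferritin genes stood below input in FPKM and the other members above it, and none of the 5 reached 2-fold. FTH1 had a log2 ratio of -0.61 and FTL of -0.45, on the scale of FPKM plus 1 used for every log2 ratio here. ACO1 had 0.89, TFRC 0.85 and IREB2 0.56. All 10856 genes at or above 1 FPKM in input or pulldown were compared, and of these 19.6% were at or past 2-fold higher in the pulldown and 2.37% at or past 2-fold lower. With 21.9% past 2-fold in either direction, 0 of 5 is no result about these genes.

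Over all genes compared the log2 ratios had a median of 0.47, and each ratio was also set against it. FTH1 lay 1.08 log2 units below that median (centred ratio -1.08) and was then past 2-fold lower, and FTL lay at -0.91. ACO1 lay at 0.43, TFRC at 0.39 and IREB2 at 0.10. A lower ratio than that of FTH1 was found in 6.30% of genes, and than that of FTL in 9.42%. TFRC and ACO1 had higher ratios than 73.7% and 75.5% of genes, and IREB2 was near the middle at 56.7%.

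**Figure D2:**
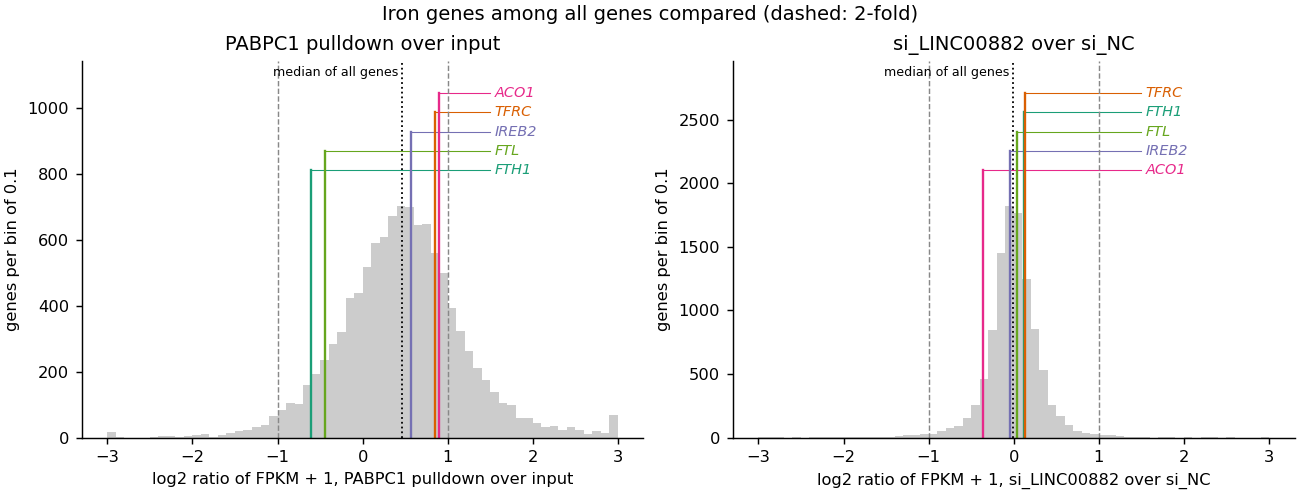
Grey bars count all genes by log2 ratio of FPKM plus 1 in bins of 0.1, with ratios beyond 3 in either direction placed in the outermost bins. The PABPC1 pulldown over input is on the left and si_LINC00882 over si_NC on the right, coloured lines mark the 5 genes, the dotted line is the median of all genes and dashed lines are 2-fold. FTH1 (-0.61) and FTL (-0.45) lie on the low side on the left, and ACO1 (-0.36) lies farthest of the 5 from the centre on the right.

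Abundance moved with this ratio. Among 345 nuclear-encoded genes reaching 100 FPKM in the pulldown or input, a class chosen after the values were seen, the median log2 ratio was -0.27. Within that class 103 genes had a lower ratio than FTH1 and 134 a lower one than FTL. Both ferritin genes are thus within the range of abundant mRNAs in this pair. The part of abundance in their ratios was not tested.

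The direction of all 5 ratios depended on the control library, and that of FTH1, FTL and IREB2 also on scaling. As a share of the summed FPKM, FTH1 was 0.139% in the pulldown and 0.124% in input. FTL was 0.826% and 0.657%, so both ferritin genes were higher in the pulldown on that scale, as were TFRC, ACO1 and IREB2. Over si_NC in place of input, FTH1 stood at 0.08 and FTL at 0.38, and TFRC at -1.60, ACO1 at -0.68 and IREB2 at -0.15, so all 5 changed sign. The si_NC library had another treatment and belongs to another pair of tables. When each library was rescaled without mitochondrially encoded genes, the ratios over input were -1.49 for FTH1 and -1.32 for FTL, both past 2-fold lower. This rescaling kept the summed FPKM of each library, 338894 in input and 197844 in the pulldown. The libraries were thus not brought to a common total, and the rescaled ratios still hold that difference. On that scale TFRC stood at 0.0080 and ACO1 at 0.077, both near 0, and IREB2 at -0.17. Scaling shifts nearly all of these genes alike, less for low ones because of the pseudocount, so the order of the 5 over input is no separate evidence.

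**Figure D3:**
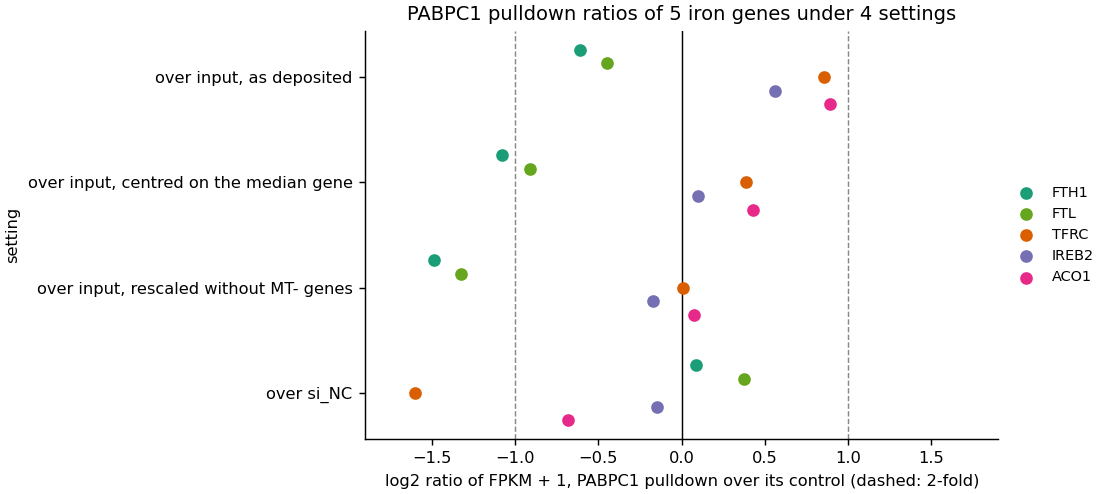
Points give the log2 ratio of FPKM plus 1 of each gene in the PABPC1 pulldown over its control, from top to bottom over input as deposited, centred on the median gene, rescaled without mitochondrially encoded genes, and over si_NC. The ferritin genes are the lowest in the upper 3 settings (-0.61 and -0.45 as deposited) and the highest over si_NC (0.08 and 0.38), where TFRC is lowest at -1.60.

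Ratios between genes of one library do not depend on how that library was scaled. FTH1 over FTL was 0.168 in the pulldown and 0.189 in input, and 0.216 in si_LINC00882 and 0.206 in si_NC. The balance of the heavy and light subunit mRNAs was thus the steadiest of these ratios over the 4 libraries. FTH1 over TFRC, a storage gene set against an uptake gene, was 7.46 in the pulldown and 21.1 in input. The same ratio was 2.26 in si_LINC00882 and 2.28 in si_NC, nearly equal within that pair and several times lower than in either lysate library. IREB2 over ACO1 was 0.320 in the pulldown and 0.388 in input, and 0.276 in si_LINC00882 and 0.220 in si_NC. The mRNA of iron regulatory protein 1 was therefore the more abundant of the regulatory proteins in each library.

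**Figure D4:**
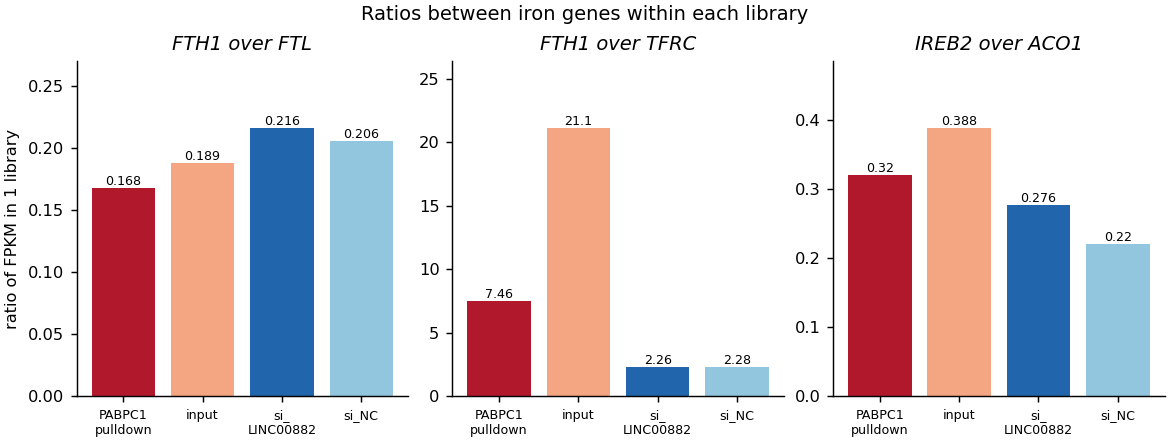
Bars give the ratio of FPKM between genes of the same library, 1 library per bar, for FTH1 over FTL, FTH1 over TFRC and IREB2 over ACO1. FTH1 over FTL lies between 0.168 and 0.216 in the 4 libraries, and FTH1 over TFRC reaches 21.1 in input against 2.28 in si_NC.

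After LINC00882 silencing the ferritin genes and the transferrin receptor stood close to their control levels. The log2 ratio of si_LINC00882 over si_NC was 0.12 for FTH1, 0.04 for FTL, 0.13 for TFRC and -0.04 for IREB2. ACO1 was the exception in size, with a log2 ratio of -0.36 (24.3 FPKM in si_LINC00882 and 31.3 in si_NC), and 8.92% of genes had a lower one. None of the 5 reached 2-fold, where 2.01% of all 10478 genes did, 0.859% higher and 1.15% lower, and the median of all genes was -0.01. No level of LINC00882 was analysed here, and how far it was knocked down is therefore unchecked. In bulk RNA, fewer cells with a transcript and less of it per cell cannot be told apart. With input as the control, TFRC stood at 2.58, ACO1 at 1.22, IREB2 at 0.67, FTH1 at -0.58 and FTL at -0.78 in si_LINC00882. These values are larger in size than those over si_NC for each of the 5 genes, and 4 of the 5 have the other sign, all but TFRC.

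The other iron genes were taken from 9 lists by role. With the 5 members they made 84 symbols, some of them synonyms, of which 71 were listed in a table. In the pulldown 70 could be compared, and 8 were at or past 2-fold higher and 1 lower, 12.9% in all against 21.9% of all genes. Their median log2 ratio was 0.39, against 0.47 over all genes. Of the 9 past 2-fold over input, 0 were past 2-fold when si_NC was the control, and only 5 kept their sign. HERC2 (-0.39), MMS19 (-0.57), NDOR1 (-0.47) and BOLA3 (0.10) had the other sign over si_NC. With that control FAM96B (1.26), ISCA1 (1.18), RBX1 (1.05) and CISD2 (20.2 FPKM in the pulldown and 6.50 in si_NC) were higher in the pulldown. TFRC (-1.60) was lower. The share of all genes past 2-fold over si_NC is not given here, so these counts are no result about the iron genes. CISD2, a mitochondrial and ER iron-sulfur protein gene, is named here after its values were seen. In si_LINC00882 68 could be compared, and 1 was at 2-fold higher and 1 lower, 2.94% against 2.01% of all genes, with a median of -0.01.

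Other mRNAs known to carry an iron-responsive element lay near the centre of all genes in the pulldown, with a median of 0.47 over 6 genes. EPAS1, the oxygen-regulated transcription factor HIF-2alpha, was at 2-fold higher, at 13.2 FPKM in the pulldown and 5.36 in input (1.16). The iron importer SLC11A2 stood at 6.72 and 2.99 FPKM (0.95). The kinase gene CDC42BPA stood at 9.95 and 7.49 FPKM (0.37), and the iron exporter SLC40A1 at 1.41 and 1.71 (-0.17). In si_LINC00882 none of 5 compared reached 2-fold. All 5 lay above 0, from 0.01 to 0.25, with EPAS1 at 14.7 FPKM in si_LINC00882 and 12.2 in si_NC (0.25). SLC40A1, under 1 FPKM in both libraries, was not compared, at 0.360 in si_LINC00882 and 0.378 in si_NC. The median of all genes was -0.01, and the share of all genes above 0 is not given here. The common sign is therefore no result about these mRNAs.

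Of 7 uptake genes compared in the pulldown 3 were at 2-fold higher, and none was lower. SLC39A8, a zinc, manganese and iron importer, stood at 8.79 FPKM in the pulldown and 0.928 in input (2.34). Its relative SLC39A14 stood at 9.07 and 3.33 FPKM (1.22). HFE, which binds the transferrin receptor, stood at 2.22 and 0.208 FPKM (1.41). SLC39A8 and HFE were under 1 FPKM in input and were compared only through their pulldown levels. Of the other 5 uptake genes 1 was at 2-fold higher, near the 19.6% of all genes. STEAP3, the endosomal iron reductase, stood at 11.5 and 5.86 FPKM (0.86). SNX3, which helps to recycle the receptor, was the opposite case, at 55.8 and 105 FPKM (-0.89), and the clathrin adaptor PICALM stood at 47.0 and 40.6 (0.21). In si_LINC00882 none of the 7 reached 2-fold, and they ranged from -0.31 to 0.24. Over si_NC the pulldown ratios were 0.16 for SLC39A8, 0.21 for SLC39A14 and 0.31 for HFE.

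Among 6 storage and delivery genes in the pulldown only HERC2 was at 2-fold higher (4.49 FPKM in the pulldown and 1.00 in input, 1.46). HERC2 is a ubiquitin ligase for NCOA4, the receptor that delivers ferritin to lysosomes. NCOA4 stood at 24.0 and 44.6 FPKM (-0.86), on the same side of input as the ferritin genes, where 19 of 70 iron genes lay. Over si_NC the pulldown ratio of NCOA4 was -0.34, on the other side from FTH1 (0.08) and FTL (0.38). The iron chaperones PCBP1 (143 and 145 FPKM, -0.02) and PCBP2 (30.6 and 35.7, -0.22) stood close to input. In si_LINC00882 NCOA4 stood at 25.3 FPKM, against 30.8 in si_NC (-0.27), and PCBP1 at 148, against 126 (0.23).

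The regulators of the iron regulatory proteins had a median of 0.16 over 9 genes in the pulldown. Those of the ligase that degrades iron regulatory protein 2 were not past 2-fold, with CUL1 at 34.6 FPKM in the pulldown and 22.2 in input (0.62) and RBX1 at 30.2 and 35.2 (-0.22). The iron-sulfur targeting factors CIAO1 (32.7 and 15.1 FPKM, 1.07) and MMS19 (10.5 and 3.89, 1.24) were at 2-fold higher, and their partner FAM96B stood at 49.5 and 26.1 (0.90). These also belong to the cytosolic cluster assembly list, where 3 of 10 were at 2-fold higher, the third being the reductase NDOR1 (4.78 and 1.40 FPKM, 1.27). Set against 19.6% of all genes at 2-fold higher, 3 of 10 is no result about that list. GLRX3, a cluster-binding glutaredoxin, stood at 22.6 and 25.3 FPKM (-0.16). None of either list reached 2-fold in si_LINC00882, where CIAO1 was lowest, at 20.4 FPKM against 25.9 in si_NC (-0.33).

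Mitochondrial iron and cluster assembly genes had the lowest list median in the pulldown, 0.02 over 19 genes. BOLA3, a cluster transfer factor that overlaps TET3, was the only iron gene at 2-fold lower, at 12.0 FPKM in the pulldown and 33.5 in input (-1.40). GLRX5 stood at 32.2 and 40.0 FPKM (-0.31), CISD1 at 29.2 and 38.3 (-0.38) and the chaperone HSPA9 at 88.3 and 73.7 (0.26). This list, the longest of the lists, also held both iron genes past 2-fold after silencing. They were 10.5% of the 19 genes compared, against 2.01% of all genes. Being so few and from single libraries, they are no result about the list. ISCA1, an assembly factor for mitochondrial clusters, stood at 25.0 FPKM in si_LINC00882 and 10.3 in si_NC (1.20). FDX2, the ferredoxin of cluster synthesis, stood at 4.19 and 13.1 FPKM (-1.44). In input ISCA1 stood at 23.4 FPKM, near the si_LINC00882 level, and FDX2 at 11.7 FPKM, near the si_NC level.

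No heme synthesis or heme breakdown gene reached 2-fold in either comparison, where 21.9% of all genes did so in the pulldown and 2.01% after silencing. For lists of 8 and 4 genes the share after silencing gives nothing to read. In the pulldown all 8 synthesis genes (median 0.43) and all 4 breakdown genes (median 0.48) stood above 0, but near the median of all genes. ALAS1, the first and rate-limiting enzyme outside red cells, stood at 24.7 FPKM in the pulldown and 13.2 in input (0.86), UROD at 22.1 and 17.6 (0.32) and CPOX at 24.3 and 24.3 (0.0033). The biliverdin reductases BLVRA (36.7 and 25.4 FPKM, 0.51) and BLVRB (19.3 and 19.2, 0.0098) and the heme oxygenase HMOX2, which overlaps NMRAL1 (15.1 and 9.10, 0.67), varied similarly. In si_LINC00882 the medians were -0.06 for synthesis and 0.01 for breakdown. Of the export genes, FLVCR1 stood at 5.20 and 2.82 FPKM in the pulldown pair (0.70), and at 1.57 in si_LINC00882 and 3.10 in si_NC (-0.67).

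**Figure D5:**
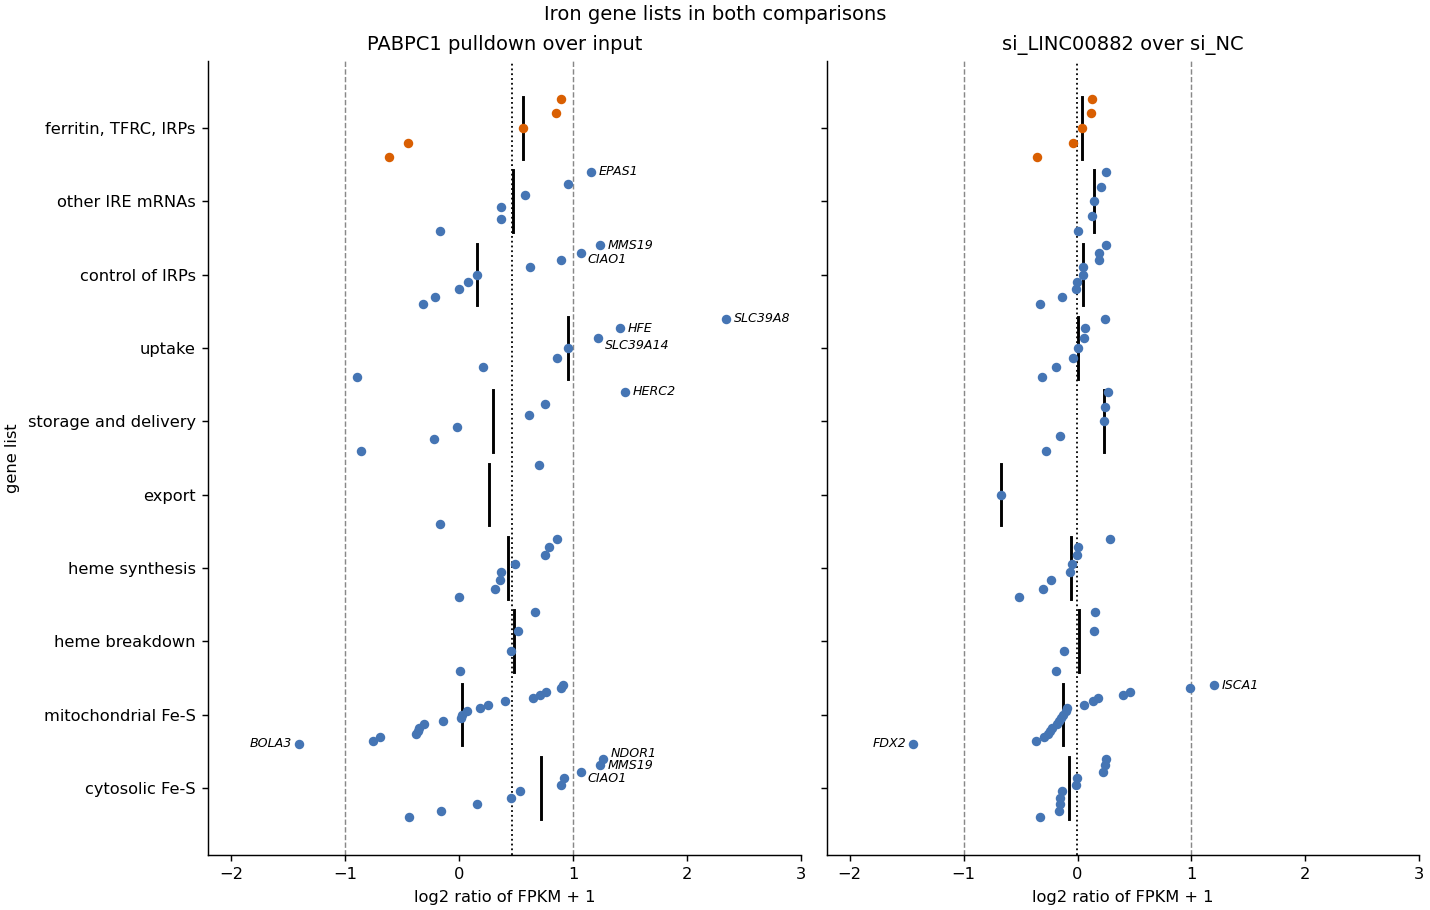
Each point is 1 gene of the list named on the left, placed by its log2 ratio of FPKM plus 1, for the PABPC1 pulldown over input on the left and si_LINC00882 over si_NC on the right. Short black lines are list medians, the dotted line is the median of all genes, dashed lines are 2-fold, and the heights of points within a list have no meaning. SLC39A8 (2.34) lies highest on the left, and ISCA1 (1.20) and FDX2 (-1.44) are the only points past 2-fold on the right.

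The genes most like each member in their pattern over the 4 libraries were found by the distance between profiles of log2 FPKM plus 1, each centred on its own mean. Candidates were protein-coding genes with at least 5 FPKM in all 4 libraries, 4432 for each member but IREB2, for which there were 4433. Among the nearest to FTH1 were CHCHD1 (distance 0.052) and BCL7C, and the nearest to FTL were PFDN4 (0.029), RALA and KMT2E. FTH1 and FTL lay 0.28 from each other, but 877 genes lay within 0.5 of FTH1 and 914 within 0.5 of FTL, so their pattern was a common one. IREB2 had 1237 genes within 0.5, among the nearest NFKB1 (0.051) and NUFIP2, and ACO1 had 270, led by VDAC1 (0.073), PGM1 and LEO1. The pattern of TFRC was rare, with 14 genes within 0.5. The nearest were SPTBN1 (0.25), LOXL2 and PLIN2, and PLIN2 stood at 21.3 FPKM in the pulldown, 12.0 in input, 61.6 in si_LINC00882 and 57.5 in si_NC. These distances rest on 4 libraries and describe levels only.

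Some levels carry a further limit from the sequence of the genes. RefSeq lists 27 pseudogenes named after FTH1 and 20 named after FTL, and no level of any of them was analysed here, so how fragments shared with these copies were assigned is uncertain. FTH1 also overlaps BEST1, which stood at no more than 0.529 FPKM in any of the 4 libraries. TFRC, IREB2, ACO1 and FTL overlap no other listed gene.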

How the data were processed

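Gene levels were measured by RNA sequencing in 4 libraries, grouped by the sample labels. Per the file headers the deposited values are FPKM, with 1 library in each file. Tools in the submitters' processing notes are StringTie 1.3.3, HISAT2 2.1.0, cutadapt 1.17 and FastQC 0.11.7, and the build is GRCh37, with no role stated. Filters, annotation, strand and depth were not given in the sources used here. Counting error could therefore not be computed.

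Log2 ratios used FPKM plus a pseudocount of 1, which understates the change of low genes, for genes reaching 1 FPKM in a library of the pair. There are no p-values, since groups are single libraries, and changes of 2-fold were counted. The members, lists and rules were chosen with earlier results of these data known. Named are the 5 members and PABPC1, list genes past 2-fold, the 3 most abundant of each list, and the 3 genes nearest in pattern to each member; a few genes that this rule names are not reported here. SLC11A2 and CISD2 were named after their values were seen. Symbols, overlaps and sequences came from RefSeq (GRCh38.p14), in which all 5 members matched. FTH1 was not searched for the hairpin. The alternatives were other pseudocounts, minimums, scalings, size rules and control libraries. Only the log2 ratios and the 2-fold rule were tested on simulated libraries, made by adding known changes to the control values. No shift common to all genes was simulated, and the other steps were not tested in this way. Values were computed in Python 3.11.15 with pandas 2.3.3 and numpy 2.4.6, and drawn with matplotlib 3.10.9.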

Additional observations from a re-analysis of the deposited data

How the results depend on the processing

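With no replicates, a result was called kept when its sign and its side of 2-fold did not change. No paired analysis was possible because each group has 1 library. The members kept sign and side when the pseudocount was 0.1 or 5 and when the minimum was dropped or set to 5 FPKM, and the ratios within a library moved by less than 1.5 times with a pseudocount of 1. In the pulldown over input, centring gave -1.08 for FTH1. Rescaling without mitochondrially encoded genes gave -1.49 for FTH1, -1.32 for FTL and -0.17 for IREB2, and 0.0075 for IREB2 in si_LINC00882 over si_NC. That rescaling kept the summed FPKM of each library and set no common total. With si_NC as its control the pulldown gave 0.084 for FTH1, 0.38 for FTL, -1.60 for TFRC, -0.15 for IREB2 and -0.68 for ACO1. With input as its control si_LINC00882 gave -0.58 for FTH1, -0.78 for FTL, 2.58 for TFRC, 0.67 for IREB2 and 1.22 for ACO1. The cause was not tested.

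Of the iron genes, 8 were 2-fold higher and 1 lower in the pulldown over input, where 19.6% and 2.37% of all genes were. The number higher was 14 with a pseudocount of 0.1, 1 with a pseudocount of 5, 5 with a minimum of 5 FPKM and 4 over si_NC. Centred, 1 was higher and 6 lower, and without mitochondrially encoded genes 2 were higher and 16 lower. By a 1.5-fold rule 27 were higher and 6 lower, and by a 3-fold rule 1 and 0. In si_LINC00882 over si_NC, 1 was higher and 1 lower, where 0.859% and 1.15% of all genes were. The counts were 2 higher with a pseudocount of 0.1 and in the rescaled values, and 0 and 0 with a pseudocount of 5 and by the 3-fold rule. They were 2 and 2 by the 1.5-fold rule, and 9 and 8 over input. For the changed settings the share of all genes is not given here, so those counts are no result about the iron genes.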
